A study of Mus musculus with 31 samples.

Results

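The RNAs described here are Rn45s, named for the precursor of the ribosomal RNAs, and 3 short structural RNAs made by RNA polymerase III, namely Rpph1, Rn7sk and Rmrp. They are 4 members, each found as the single RNA locus that overlaps a fixed window on mouse build mm9, out of 8882 to 9295 loci per table in wild-type cells and 143073 loci in Srap1 knockout (KO) cells. The members were chosen with the levels in these same RNA tables in view, so their levels are given as a description and no test is made on them. The deposited tables carry no gene names, and the names rest on the windows.

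The study compared mouse embryonic stem (ES) cells that lack Srap1 with co-derived wild-type ES cells. Srap1 is the SRAP nuclease that the title of the series links to oxidized methylcytosine. The wild-type RNA group has 4 tables and the Srap1 KO RNA group has 2, and the 2 KO tables were identical in every byte and were counted as 1 sample. A control immunoprecipitation of purified Srap1 KO DNA with IgG (IgG DIP) at passages 3-5 is the only DNA library used, and the labelled wild-type IgG DIP was not analysed here. All of these cells were of 129SVxC57/BL6 background and were grown on gelatin with serum, leukemia inhibitory factor, inhibitors of GSK3β and Mek, and ascorbic acid. No age, sex or number of clones is given in the labels. Total RNA was depleted of ribosomal RNA with a stranded RiboErase kit. All libraries went through 12 cycles of PCR and 2 purifications on beads at a volume ratio of 0.9, which retain long fragments better than short ones. The identity of the cells could not be checked against stem cell markers, because the tables name no gene.

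The ribosomal RNA precursor is transcribed by RNA polymerase I from many near-identical repeats and is cut into the RNAs of the small and large ribosomal subunits, which make up most of the RNA of a growing cell. Rpph1 is the RNA part of RNase P, which removes the leader of transfer RNA precursors. Rmrp is the RNA part of the related RNase MRP, which cuts the ribosomal RNA precursor. Rn7sk is the scaffold of a nuclear particle that holds the elongation factor P-TEFb inactive. None of the 3 short RNAs carries a poly(A) tail, so libraries made from total RNA, like these, are the kind that can hold them. Depletion kits of this type direct RNase H to ribosomal RNA with DNA probes and are not aimed at the other 3 RNAs.

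Levels are in FPKM, fragments scaled to the length of the transcript and to the size of the library, each deposited with a lower and an upper bound. The number of fragments behind a value was inferred from its bounds, on the assumption that the upper one lies 2 Poisson standard deviations above the value. These implied fragments sum to 895779 to 926460 per wild-type table and to 10804715 for the KO. Every comparison of the genotypes below sets 1 KO sample beside 4 wild-type tables, so it has no replicate check, and the labels do not say that the wild-type tables came from separate cultures. Genotype, depth and makeup of the library change together between the groups and cannot be told apart.

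Rn45s was the locus with the most implied fragments in the wild-type tables. Fragments there were not divided between the precursor and the ribosomal RNAs cut from it. Its locus ran from 39979940 to 39985777 on chromosome 17 in wild-type replicate 1, a width of 5837 bases, and from 39979939 to 39985777 in the KO. Its level was 49757, 47660, 49627 and 50078 FPKM in wild-type replicates 1 to 4 and 3046 FPKM in the KO (deposited interval 3036 to 3056 FPKM). The wild-type values lay within 4.91% of each other relative to their mean, and the KO value lay 16.2-fold below that mean. The log2 ratio of FPKM + 1 was -4.02.

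Rpph1 showed the opposite order. The locus spanned 51427119 to 51427443 on chromosome 14 in wild-type replicate 1 and 51427117 to 51427439 in the KO. Its level was 2324, 2273, 2120 and 2144 FPKM in the wild-type replicates and 46278 FPKM (46014 to 46541 FPKM) in the KO. All wild-type values lay below the KO value, by 20.9-fold at their mean, a log2 ratio of 4.39.

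Rn7sk was also higher in the KO table, by less. Its locus lay at 78023113 to 78023443 on chromosome 9 in wild-type replicate 1 and at 78023082 to 78023432 in the KO. The level was 12278, 11989, 12495 and 12026 FPKM in the wild-type replicates and 44066 FPKM (43833 to 44299 FPKM) in the KO. The groups did not overlap, and the KO value was 3.61-fold the wild-type mean, a log2 ratio of 1.85.

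Rmrp was lower in the KO table by FPKM, but by its share of all implied fragments it was not, at 1.05-fold the wild-type mean. Its level was 17514, 16947, 16755 and 17627 FPKM in the wild-type replicates and 8575 FPKM (8495 to 8655 FPKM) in the KO. The wild-type mean was 2.01-fold the KO value, a log2 ratio of -1.005. The locus was not the same stretch in both groups. It covered 43505655 to 43505931 on chromosome 4 in wild-type replicate 1, a width of 276 bases, and 43505478 to 43505922 in the KO, a width of 444 bases.

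**Figure D1:**
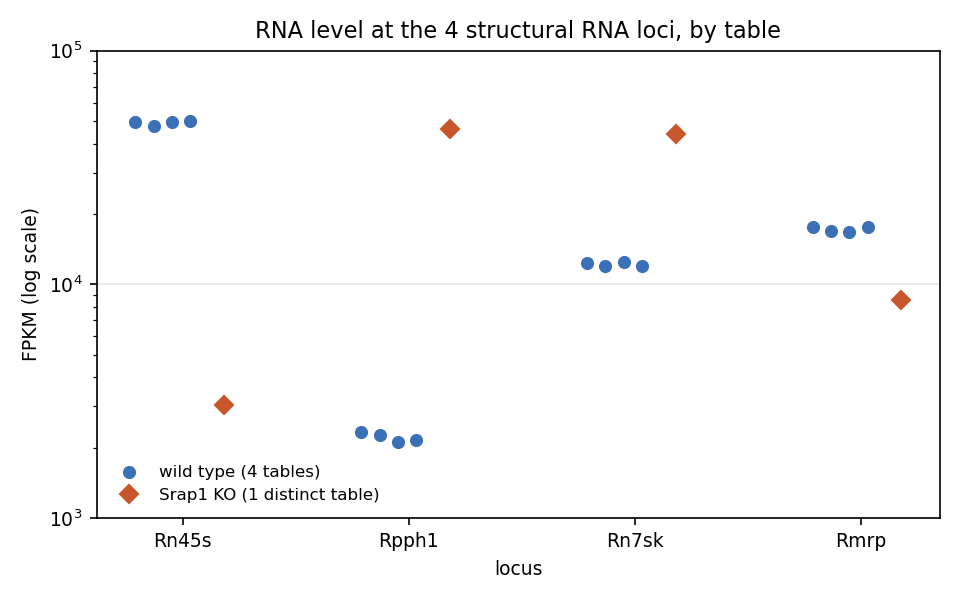
FPKM on a log axis at the 4 loci, with 1 point for each of the 4 wild-type tables and 1 diamond for the Srap1 KO table, whose deposited interval is narrower than the symbol. The wild-type points are tightly grouped, and the KO lies 16.2-fold below their mean at Rn45s and 20.9-fold above it at Rpph1.

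By deposited FPKM, 2 members were higher in the KO and 2 lower, each outside the wild-type range and at least 2-fold away from the wild-type mean. Among 224 loci matched between the 5 distinct tables by 80% reciprocal overlap, the same rule called 79 higher (35.3%) and 36 lower (16.1%). Nothing is read from the members' count, since they were chosen on this contrast. Rmrp stood just inside the 2-fold limit. Its log2 ratio was -0.996 without wild-type replicate 1 and -0.993 without replicate 4, both just outside it. Because of the different ends of its locus, Rmrp was not among the 224 paired loci.

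The order of the 4 RNAs was the same in every wild-type table, with Rn45s highest, then Rmrp, Rn7sk and Rpph1, and the ranges of neighbours in this order did not overlap. In the KO table the order was Rpph1, Rn7sk, Rmrp and Rn45s. The KO intervals of Rpph1 and Rn7sk, 46014 to 46541 FPKM and 43833 to 44299 FPKM, were close but did not overlap. Ranking by fragments gave another view of the same tables. In the KO table Rn45s, Rn7sk, Rpph1 and Rmrp were ranks 1, 2, 3 and 4 of all 143073 loci by implied fragments. In the wild-type tables Rn45s was rank 1, Rn7sk rank 5 to 8, Rmrp rank 6 to 8 and Rpph1 rank 29 to 31. By FPKM, Rn45s was only rank 36 to 41 in the wild type, below 35 to 40 loci that were 21 to 167 bases wide, each narrower than any member.

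Rn45s took most of the implied fragments of each wild-type table and a small share of the KO's. Rn45s had 557327, 563322, 567967 and 571383 implied fragments in wild-type replicates 1 to 4, or 62.2%, 61.4%, 62.2% and 61.7% of each table. In the KO it had 378757, or 3.51%. The KO share lay far below all 4 wild-type shares. Whether depletion of ribosomal RNA was less complete in the wild-type libraries was not tested, and it cannot be told apart from genotype here.

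Together the 3 short RNAs took 0.886% to 0.903% of a wild-type table's implied fragments and 2.90% of the KO's. Rpph1 had 676, 691, 643 and 647 implied fragments in wild-type replicates 1 to 4 and 123660 in the KO, with shares of 0.0699% to 0.0755% in the wild type and 1.14% in the KO. Rn7sk had 3763, 3736, 3921 and 3793 in the wild type and 143441 in the KO, with shares of 0.408% to 0.430% and 1.33%. Rmrp had 3595, 3700, 3678 and 3860 in the wild type and 45980 in the KO, with shares of 0.401% to 0.417% and 0.426%. The shares of Rpph1 and Rn7sk in the KO were thus well above the wild-type range, while that of Rmrp, 1.05-fold the wild-type mean, lay just above the highest wild-type value.

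**Figure D2:**
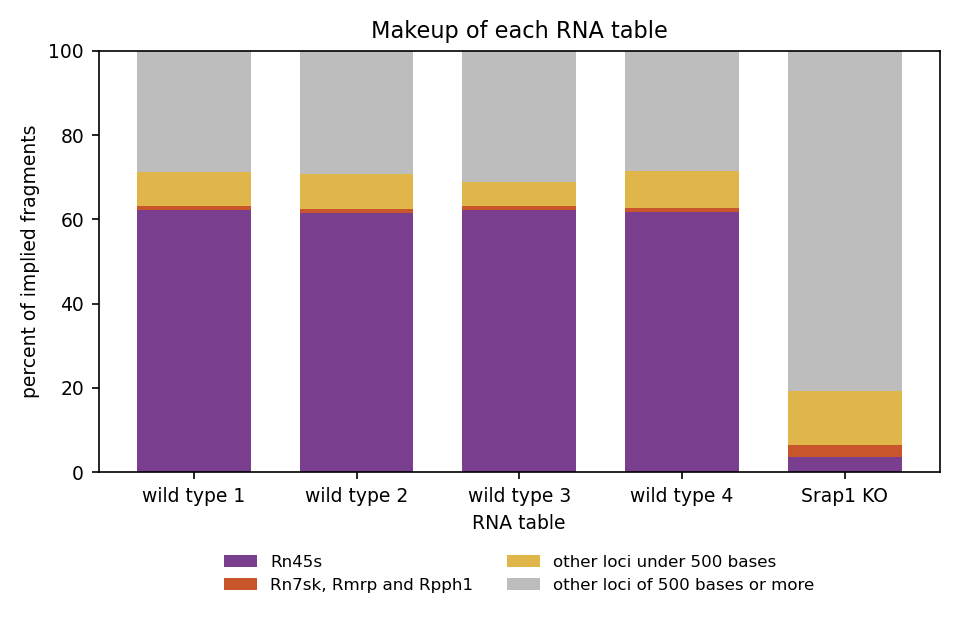
Percent of the implied fragments of each RNA table, stacked over Rn45s, the 3 short RNAs, other loci under 500 bases, and all other loci. Rn45s fills 61.4% to 62.2% of the wild-type bars and 3.51% of the KO bar, and the 3 short RNAs fill at most 0.903% of a wild-type bar and 2.90% of the KO bar.

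Counting only the fragments outside Rn45s removes its share from the scale. By construction this lowers every ratio of KO to wild type by about the same factor. It brought the groups closer for Rpph1 and Rn7sk and moved them apart for Rmrp. Outside Rn45s, 338453 to 355077 implied fragments remained per wild-type table and 10425958 in the KO. Rpph1 made up 0.182% to 0.200% of these in the wild type and 1.19% in the KO, a 6.21-fold difference. Rn7sk made up 1.06% to 1.14% in the wild type and 1.38% in the KO, a 1.26-fold difference. Rmrp made up 1.05% to 1.09% in the wild type and 0.441% in the KO, so that the wild type was 2.42-fold higher. On the FPKM scale, with each table divided by its share outside Rn45s, the KO was 8.25-fold the wild-type mean at Rpph1 and 1.43-fold at Rn7sk, and the wild-type mean was 5.08-fold the KO at Rmrp. The KO values lay outside the wild-type range for all 3 RNAs on both scales. How many of all loci do so was not counted, so nothing is read from this.

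The same rescaling moved all paired loci by construction, since it adds a constant per table to every log2 value. The median log2 ratio of the 224 paired loci was 0.52 with deposited FPKM and -0.82 with totals outside Rn45s, a shift of -1.34. The number of loci called higher in the KO went from 79 to 5 (2.23%), and the number called lower went from 36 to 97 (43.3%). With each table scaled to the median of its paired loci, the log2 ratio was 3.87 at Rpph1, 1.34 at Rn7sk, -1.52 at Rmrp and -4.53 at Rn45s.

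**Figure D3:**
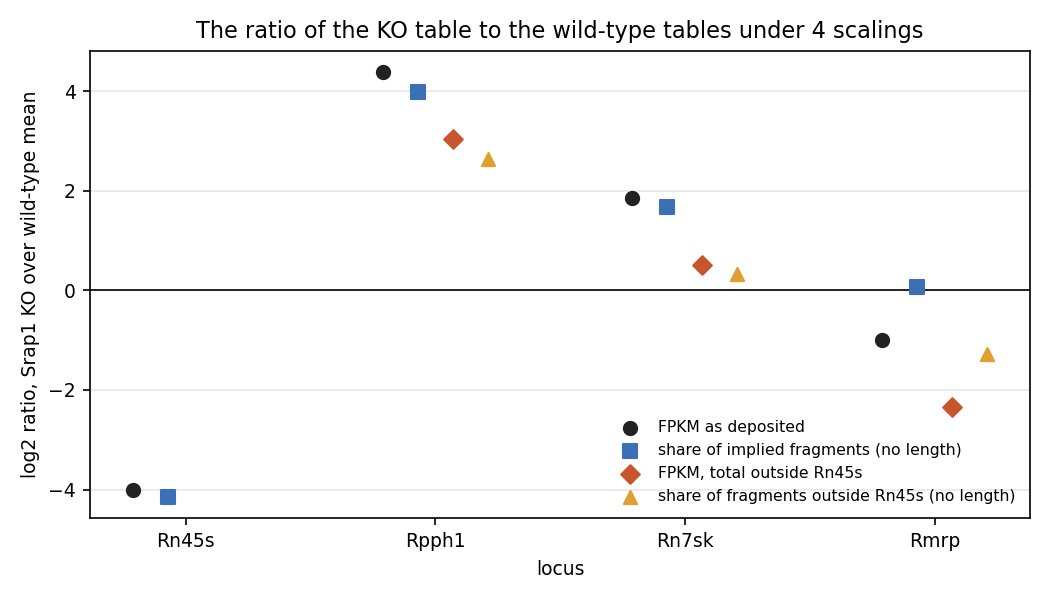
Log2 ratio of the Srap1 KO table to the mean of the wild-type tables at the 4 loci, under 4 ways of scaling, where a point above 0 is higher in the KO. Rpph1 and Rn7sk stay above 0 under all 4 and Rmrp crosses 0 with the share of all implied fragments, at 0.07; Rn45s has no value on the scales outside itself.

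Ratios between members within a table do not depend on its total. Rpph1 had 0.168 to 0.188 implied fragments for each fragment of Rmrp in the wild type and 2.69 in the KO. Rn7sk had 0.983 to 1.07 for each fragment of Rmrp in the wild type and 3.12 in the KO. Between Rn7sk and Rpph1 the ratio was 5.41 to 6.10 in the wild type and 1.16 in the KO. The RNAs of the 2 related ribonucleases, RNase P and RNase MRP, thus changed places, with the MRP RNA ahead in every wild-type table and the P RNA ahead in the KO table. This order was the same by FPKM, where Rpph1 to Rmrp was 0.122 to 0.134 in the wild type and 5.40 in the KO.

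The widths of the loci were set beside the lengths of the genes in RefSeq (GRCm38.p6), which lists 3 of the 4 members and not Rn45s. Rpph1 has 325 bases there and its loci were 324 to 326 bases wide in the wild type and 322 in the KO. Rn7sk has 332 bases, and its loci were 327 to 330 bases wide in the wild type and 350 in the KO. Rmrp has 275 bases, and its loci were 276 to 279 bases wide in the wild type and 444 in the KO. The KO locus of Rmrp was therefore the only one of the short loci to differ from the gene by more than 20 bases, and it began at a lower coordinate than every wild-type locus. The KO locus of Rn7sk also began lower, at 78023082. No promoter sequence of the 4 members was at hand, and none is shown.

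FPKM divides by an effective length, which is shorter than the transcript because a fragment has a length of its own, and short RNAs lose most by it. The effective length itself is not in the tables and was computed from the implied fragments and the FPKM. With the sum of implied fragments as the library total it came to 12315 to 12893 bases at Rn45s in the wild type and 11507 bases in the KO. These exceed the width of the locus. Whether the total, the implied fragments or the length behind the deposited values accounts for this was not tested, so the lengths in bases are approximate. The shares of implied fragments rest on the same total and are approximate too. So are the FPKM values and the counts of paired loci scaled outside Rn45s. Set relative to Rn45s in the same table, which needs no total, the length per base of locus width was 0.468 to 0.477 at Rpph1 in the wild type and 0.390 in the KO. At Rn7sk it was 0.484 to 0.490 and 0.437, and at Rmrp 0.388 to 0.403 and 0.567. In bases on this relative scale Rmrp was divided by 107 to 112 in the wild type and by 252 in the KO.

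The length was computed from the FPKM and the fragments, so the ratios of share, length and FPKM fit together by construction. With the sum of implied fragments as the total, the length at Rmrp had a log2 ratio of 1.07. Its share of fragments was 1.05-fold the wild-type mean in the KO, and its FPKM had a log2 ratio of -1.005. At Rpph1 the length had a log2 ratio of -0.41, and the ratio was 20.9-fold by FPKM and 15.7-fold by share. At Rn7sk the length had a log2 ratio of -0.18, and the ratio was 3.61-fold by FPKM and 3.19-fold by share. Relative to Rn45s the log2 ratio of the length was 1.20 at Rmrp, -0.28 at Rpph1 and -0.055 at Rn7sk.

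Other loci of like width also had a shorter relative length in the KO table. Over all loci of 300 to 400 bases with at least 10 implied fragments, the median relative length per base of width was 0.515 to 0.530 in the wild type and 0.442 in the KO table. At 200 to 300 bases it was 0.328 to 0.362 in the wild type and 0.252 in the KO. The wild-type tables held 610 to 654 loci under 500 bases and the KO had 73782, or 6.72% to 7.09% and 51.6% of all loci. Such short loci accounted for 17.3% to 25.7% of the fragments outside Rn45s in the wild type and 16.4% in the KO. The 3 short RNAs were 9.11% to 13.8% of the fragments of these loci in the wild type and 18.3% in the KO. Whether the selection of fragment sizes differed between the libraries was not tested.

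The wild-type tables listed few other loci near the members. Within 10 kb of Rn45s, Rn7sk and Rmrp no wild-type table listed another locus, and near Rpph1 only replicates 2 and 3 did, with 2 loci and 1 locus of at most 32.6 FPKM. The KO table listed 10 other loci near Rpph1, up to 107 FPKM, 4 near Rn7sk, up to 4.81 FPKM, 7 near Rmrp, up to 23.3 FPKM, and 0 near Rn45s. The KO table was the deeper one, so more loci near the members could be listed in it. A stretch with no locus in a wild-type table need not be silent.

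The paired locus most like each member was found by the Euclidean distance of log2(FPKM + 1) over the 5 distinct tables. For Rn45s it was chromosome 9, 110183768 to 110183871, at a distance of 1.12, with 31664 to 41245 FPKM in the wild type and 2228 FPKM in the KO. The next, chromosome 1, 104524781 to 104524916, was at 2.22. For Rpph1 the nearest was chromosome 8, 3803133 to 3803342, at 4.46, and its level was alike in both groups, with 1949 to 2187 FPKM in the wild type and 2111 FPKM in the KO. The second nearest to Rpph1 was Rn7sk itself, at 4.92, and Rpph1 was in turn the nearest to Rn7sk, followed by the chromosome 9 locus named above, at 5.29. For Rmrp the nearest were Rn7sk, at 2.56, and chromosome 5, 147072566 to 147072941, at 2.76, with 21076 to 21892 FPKM in the wild type and 1337 FPKM in the KO. The 5 tables are in effect 2 groups, so likeness here is mostly likeness in level.

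The IgG DIP reads covered the same 4 windows in a library prepared from purified DNA. Whether these reads are independent of the RNA levels that chose the members was not tested. The library held 9127504 aligned reads, of which 20.7% had a mapping quality under 30 and 73.4% the highest value, 60. A low mapping quality marks a read that fits more than 1 place nearly as well. Intervals given for these reads are exact 95% intervals, and where a count is 0 the limit is 3 reads of the total, with the exact upper bound beside it. Both cover counting error only, and the library has no replicate. For density ratios the interval covers the count in the window alone. The flank density is taken as fixed, so these intervals are too narrow.

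Rn45s stood out by read number. Its share of poorly mapped reads was below that of its flanks and slightly above the 20.7% of the whole library. Its window held 2248 reads, or 368 per kb, against 2.30 per kb in the 10 kb on either side, a ratio of 160 (154 to 167). Of these reads 23.5% (21.8% to 25.3%) had a mapping quality under 30, against 56.5% (41.1% to 71.1%) of the 46 reads in the flanks. With reads of quality of at least 30 alone, the ratio to the flanks was 282. Against flanks of 100 kb, with all reads, the ratio was 217, outside the interval above. The pile began and ended with the RNA locus, since the 500 bases before its start held 0 reads and the first 500 bases held 253. A unique mapping in the assembled genome does not show a single copy in the cell, because build mm9 need not hold the other repeats.

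Mapping quality was not even along the Rn45s locus. In the first 1 kb 17.5% (14.1% to 21.2%) of 464 reads were under 30. Between 1 kb and 3 kb none of 707 reads was, which allows a share of up to 0.424% (exact upper bound 0.520%). Between 3 kb and 5 kb 56.5% (52.9% to 60.1%) of 764 reads were, and in the last stretch, from 5 kb to the end of the locus, 4.81% (2.72% to 7.81%) of 312 reads. The read density moved much less, from 354 to 464 per kb. Poorly mapped reads were therefore concentrated in 1 stretch of about 2 kb towards the end of the locus with the higher coordinate.

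**Figure D4:**
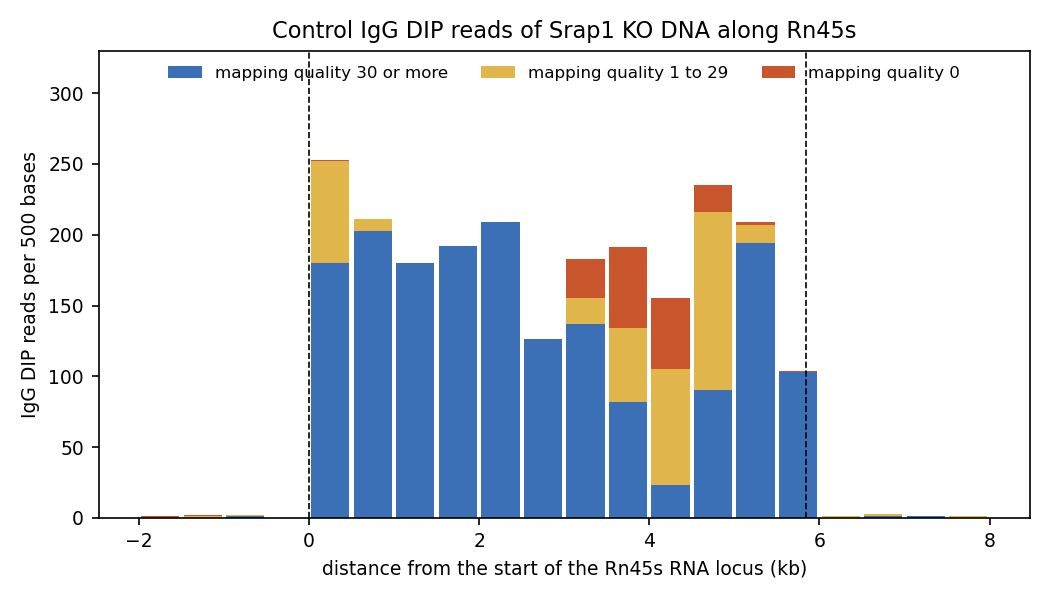
IgG DIP reads of Srap1 KO DNA in steps of 500 bases along Rn45s, by distance in kb from the start of its RNA locus, stacked by mapping quality; dashed lines mark the start and end of the RNA locus. Outside the lines each step holds 0 to 3 reads, and those under a quality of 30 lie mostly between 3 kb and 5 kb, where they are 56.5% of all.

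The short loci also held more IgG DIP reads than their surroundings, nearly all of them on 1 strand, and whether these reads come from genomic DNA was not tested. Rpph1 had 25 reads in its window of 351 bases, 18.7 times the density of its flanks (12.1 to 27.7). Rn7sk had 34 reads in 351 bases, a ratio of 16.7 (11.6 to 23.3). Rmrp had 21 reads in 301 bases, a ratio of 12.5 (7.71 to 19.0). The intervals of these 3 ratios overlap, and each lies far below that of Rn45s. In the same library 60235 of the KO RNA loci of 200 to 500 bases had reads in their flanks, and their median ratio was 0.913. Only 0.0315% of them (19 loci) reached 10 and 0.392% (236 loci) reached 5. Measured over the deposited KO locus, as these are, the ratio was 20.4 at Rpph1, 16.7 at Rn7sk and 8.30 at Rmrp. Other loci of this class with at least 1000 FPKM in the KO had only 1088 to 2111 FPKM, below the 8575 FPKM of Rmrp. They cannot show what ratio goes with a level as high as the members'. Of the 6 other loci in this class with at least 1000 FPKM in the KO, 5 had ratios of 0 to 1.63 and 1, at chromosome 5, 147072566 to 147072932, had 58.4, with 26 of its 77 reads on the forward strand.

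Mapping quality differed among the short loci. At Rmrp 0 of 21 reads were under 30, which allows up to 14.3% (exact upper bound 16.1%), and all had the highest quality, as against 2.68% under 30 in its flanks. At Rpph1 4 of 25 reads were under 30, or 16% (4.54% to 36.1%), none of them at 0, with 5.26% (1.45% to 12.9%) in the flanks. At Rn7sk 11 of 34 were under 30, or 32.4% (17.4% to 50.5%), all of them at quality 0, with 18.1% (11.6% to 26.3%) in the flanks. At Rpph1 and Rn7sk the intervals of locus and flanks overlap, and the difference itself was not tested. It also moved with the setting. Against flanks of 100 kb, with 24.6% under 30, the share at Rpph1 was the lower one, and with 1 read per start and strand the share at Rn7sk was 40.7%. The reads of quality 0 at Rn7sk began 98 to 225 bases after the start of its window, while only 1 of the 22 reads between 50 and 100 bases was under 30. Reads of Rn7sk that fit other places are thus a part of the locus and not the whole of it.

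The strand of these reads was uneven at the short loci and not at their flanks. Over the whole library the reads were split evenly, with 50.02% on the forward strand. At Rpph1 24 of 25 reads were forward, or 96.0% (79.6% to 99.9%). At Rn7sk 32 of 34 were, or 94.1% (80.3% to 99.3%), and at Rmrp 20 of 21, or 95.2% (76.2% to 99.9%). In their flanks 48.3% to 53.9% of reads were forward, and at Rn45s 46.0% (44.0% to 48.1%). With 1 read per start and strand the forward reads were 22 of 23 at Rpph1, 25 of 27 at Rn7sk and 17 of 18 at Rmrp, so the imbalance was as large without repeated reads. Of the KO RNA loci of 200 to 500 bases with at least 20 IgG DIP reads, 3 of 33 (9.09%) had at least 90% of their reads on 1 strand, and these 3 were Rpph1, Rn7sk and Rmrp. The other 30 had a median of 56.0% on their more frequent strand. This comparison was chosen after the strands had been seen. What the forward reads stem from was not tested.

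The forward reads were also bunched. At Rn7sk 22 of 34 reads had their leftmost base between 50 and 100 bases from the start of the window, and at Rpph1 12 of 25 did. At Rmrp 15 of 21 reads fell in the first 100 bases, as did 20 of 25 at Rpph1 and 24 of 34 at Rn7sk.

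**Figure D5:**
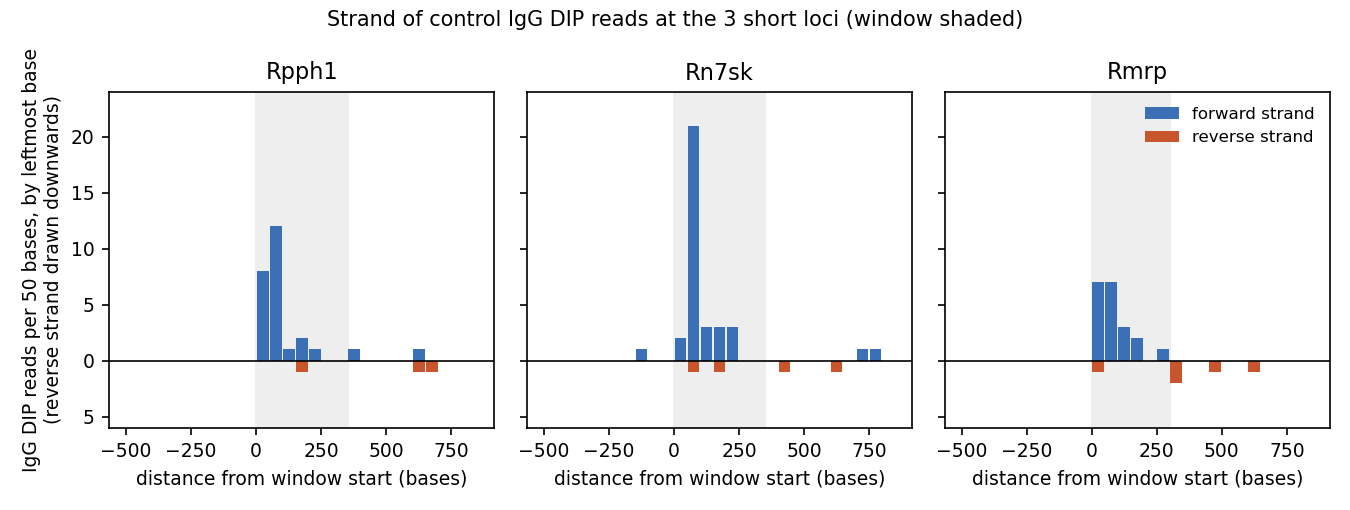
IgG DIP reads per 50 bases by leftmost base at Rpph1, Rn7sk and Rmrp, with forward reads drawn upwards, reverse reads downwards and the window shaded; the x axis is the distance in bases from the window start. Forward reads make up 24 of 25, 32 of 34 and 20 of 21 reads in the 3 windows, and most fall in the first 100 bases.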

How the data were processed

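RNA values are FPKM with bounds, made by the authors with Cufflinks, per the file headers; loci were assembled without gene names. For these RNA samples Cufflinks 2.2.1.0, Bowtie 0.12.8 and Trim Galore 0.3.5 are listed in the submitters' processing notes; their settings, and the aligner of the IgG DIP reads, are not given in the sources used here. The deposited IgG DIP file gives 1 row per aligned read with a mapping quality score of 0 to 60. Implied fragments (Poisson, from the upper bound) were whole within 0.02 at 26.3% to 33.4% of loci and are approximate.

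The members and lists were chosen with earlier results of these data known. Named loci were the 4 members and, for each, the 2 nearest paired loci. Loci were paired to wild-type replicate 1 by best overlap of at least 80% of both, each used once, with at least 1 FPKM in 2 tables; ratios are of log2(FPKM + 1), which understates low loci. No test compared the genotypes; Dixon's rule was applied to the wild-type tables to find tables that stood apart. Other structural RNAs and cell markers had no mm9 position at hand and were not analysed here. Read positions count the leftmost base. Pairing, calling and implied fragments were run on simulated data. There the bounds followed the same Poisson rule and the loci were nearly the same in every table. The run therefore checks the calculation, and not whether the deposited bounds follow that rule or how well differing loci pair. Python 3.11.15, pandas 2.3.3 and scipy 1.17.1 were used.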

Additional observations from a re-analysis of the deposited data

Results flagged for a closer look

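In 2 of 16 quantities of the members, 1 of the 4 wild-type tables stood apart. Chance gives about 1 in 20 for each quantity. The quantities share the same counts and are not independent, so no excess is read from this. The Rn45s locus was 6049 bases wide in wild-type replicate 2 and 5835 to 5837 bases in the others. Rmrp held 0.417% of the implied fragments in wild-type replicate 4 and 0.401% to 0.404% in the others. The largest gap between these wild-type shares was only 1.62 counting standard errors.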

How the results depend on the processing

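Of 112 alternatives that left out no library, 71 stayed within the spread or interval of the reported value, 38 moved outside it and 3 reversed a direction. Some of the 71 equal the reported value exactly. The sum over all overlapping loci does so by construction, since a single locus overlaps each window. The reversals are all at Rmrp. Its log2 ratio was 0.067 by share of all implied fragments, that share fell to a log2 ratio of -1.27 with totals outside Rn45s, and the log2 ratio of its effective length went from 1.07 to -0.27 with a library total without Rn45s; the differing ends of its locus and the Rn45s share enter these by construction. Scaled outside Rn45s, log2 ratios of FPKM were 3.05 at Rpph1, 0.51 at Rn7sk and -2.35 at Rmrp. With median scaling they were -4.53 at Rn45s, 3.87 at Rpph1, 1.34 at Rn7sk and -1.52 at Rmrp. As shares of all fragments they were -4.14 at Rn45s, 3.98 at Rpph1 and 1.67 at Rn7sk. As shares outside Rn45s (for FPKM, an alternative chosen after seeing the data) they were 2.64 at Rpph1, 0.33 at Rn7sk and -1.27 at Rmrp. Over loci of at least 300 bases the share of Rn45s gave -4.11. With a total without Rn45s the log2 ratio of the length was -1.75 at Rpph1 and -1.52 at Rn7sk. Relative to Rn45s, also added later, it was -0.28 at Rpph1, -0.055 at Rn7sk and 1.20 at Rmrp.

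Without each wild-type replicate the log2 ratio of FPKM ranged from -4.03 to -4.01 at Rn45s, 4.36 to 4.41 at Rpph1, 1.85 to 1.86 at Rn7sk and -1.02 to -0.993 at Rmrp. The ratio of shares ranged from -4.15 to -4.14, 3.96 to 3.99, 1.66 to 1.69 and 0.06 to 0.08 in the same order. Between 88 and 99 paired loci were then higher and 39 to 46 lower, of 277 to 297 paired. At 50% overlap 187 were higher and 148 lower of 833. Median scaling gave 33 higher and 51 lower, and totals outside Rn45s gave 5 and 97. Leaving out either identical KO table changes nothing.

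For IgG DIP reads at Rn45s, 9.39% were under a quality of 10 and 7.03% under 1, with 34.8% and 26.1% in its flanks. At Rpph1 0% were under 10 and 0% under 1, with 1.32% under 1 in its flanks. With flanks of 100 kb the flank share under 30 was 24.6% at Rpph1 and 28.5% at Rn7sk. The density ratio of Rn45s was 282 at a quality of at least 30, 142 with 1 read per start and strand and 217 against 100 kb. The 21 to 34 reads at each short locus limit what can be said of their mapping. A share outside Rn45s has no value for Rn45s, and one over loci of at least 300 bases none for Rmrp. No paired analysis was possible because the KO tables are identical and no comparison of the genotypes comes from a test.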
